A study of Mus musculus with 36 samples.

Results

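The Regnase, Roquin, ZFP36 and BTG/TOB proteins control how long messenger RNAs last, and their own mRNAs were followed here in mouse T cells of 3 Malt1 genotypes at rest and after 1 and 4 h of stimulation. The members were all array probes annotated with one of 10 gene symbols (Zc3h12a, Zc3h12d, Rc3h1, Rc3h2, Zfp36, Zfp36l1, Zfp36l2, Btg1, Btg2 and Tob1). This gave 14 of 25697 probes and 8 of 16593 genes on the arrays. No probe carried the symbol Rc3h2 or Zfp36l2, so these 2 genes were not analysed here. A probe was tested when its signal exceeded the negative control beads (detection p under 0.01) on at least 4 arrays, which 12 member probes of 7 genes did. The probe of Btg2 was detected on 3 of 36 arrays and 1 of the 4 Btg1 probes on 0 of 36, and neither was tested.

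RNA from T cells was hybridised to 36 Illumina bead arrays in 9 groups of 4. The genotypes were Malt1PM/- (called PM), whose single Malt1 allele carries a point mutation, Malt1-/- (KO), which has no intact allele, and Malt1+/- (het), the control with 1 wild-type allele. Every animal thus carried at least 1 null allele, and every sample had the strain label B6.C-Tg(CMV-cre)1Cgn/J, a line with Cre under the broadly active CMV promoter, which is not specific to T cells. Each genotype was sampled at 0 h (non-stimulated), 1 h and 4 h (stimulated). The labels' protocols describe total T cells left after removal of B220+ and CD11b+ cells as well as CD4+ T cells, and describe both PMA with ionomycin and antibodies to CD3 and CD28. They do not say which were used for the arrays. Age and the number of mice per sample were not given in the sources used here, and the series' design text speaks of 3 biological replicates where the labels list 4. Nothing says that the 4 replicates of a group came from separate mice, so the p-values measure the spread between these arrays.

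Regnase-1, the product of Zc3h12a, is an endonuclease that cuts stem-loops in the tails of inflammatory mRNAs, and Roquin-1, the product of Rc3h1, binds such stem-loops and recruits deadenylases. ZFP36 proteins bind AU-rich elements and bring in the CCR4-NOT deadenylase complex, and BTG and TOB proteins bind the same complex and restrain cell proliferation. MALT1, a scaffold and protease downstream of the T cell receptor, is known to cleave the Regnase-1 and Roquin proteins. The arrays measured mRNA and say nothing of that cleavage.

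The RefSeq promoter windows of 9 members were available (build GRCm38.p6), each of 250 bases upstream of the start that the promoter table uses. For Zc3h12d and Tob1 that start lies inside the gene as RefSeq annotates it. The windows were searched on both strands for an AP-1-like pattern (TGANTCA), which allows any base in the middle. They were also searched for a cAMP response element (TGACGTCA), an EGR site (GCGNGGGCG), a CArG box and a kappa B site. Windows of 3 members are shown, Zfp36, Zfp36l1 and Zc3h12a, which rose at 1 h of stimulation in all 3 genotypes. Rc3h1, Btg1 and Tob1 rose in all 3 genotypes as well, and their windows are not shown. Capitals mark a matched motif, and each sequence runs 5′ to 3′ on the gene's strand.
Zfp36 (chr7:28379229-28379478, minus strand): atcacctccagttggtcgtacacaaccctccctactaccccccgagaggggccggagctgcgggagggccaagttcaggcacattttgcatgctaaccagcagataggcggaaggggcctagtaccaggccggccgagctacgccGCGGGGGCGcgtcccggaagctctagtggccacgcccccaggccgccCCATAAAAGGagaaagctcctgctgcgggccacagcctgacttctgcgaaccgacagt
Zfp36l1 (chr12:80113014-80113263, minus strand): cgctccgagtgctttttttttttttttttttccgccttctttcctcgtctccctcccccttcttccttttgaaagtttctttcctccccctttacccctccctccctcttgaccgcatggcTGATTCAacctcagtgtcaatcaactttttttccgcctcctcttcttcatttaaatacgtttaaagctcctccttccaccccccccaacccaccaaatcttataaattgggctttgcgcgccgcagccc
Zc3h12a (chr4:125127882-125128131, minus strand): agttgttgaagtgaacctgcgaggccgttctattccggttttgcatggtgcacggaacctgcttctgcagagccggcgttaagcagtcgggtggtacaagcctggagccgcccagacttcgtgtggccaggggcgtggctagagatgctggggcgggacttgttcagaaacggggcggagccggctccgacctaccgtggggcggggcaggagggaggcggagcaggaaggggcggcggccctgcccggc

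The Zfp36 window held an EGR site that began 105 bases before the start and a CArG box, the sequence bound by serum response factor, that began 58 bases before it. The Zfp36l1 window matched the AP-1-like pattern with the letters TGATTCA, 129 bases before the start. The Zc3h12a, Zc3h12d, Btg1, Tob1 and Rc3h2 windows held none of the 5 motifs. Among the other members, Rc3h1 matched the AP-1-like pattern with the letters TGACTCA, and Btg2 had a cAMP response element and an EGR site. Of 32851 RefSeq windows of the same length, 6.75% held the AP-1-like pattern, 1.55% the cAMP response element, 4.7% the EGR site and 1.47% the CArG box. The kappa B site was in 3.9% of them and in 0 of the 9 member windows. A match describes letters in the window and does not show a bound site.

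Signals are given as background-corrected, quantile-normalised log2 values, on which a probe at background reads a little above 4. Between 7713 and 10291 probes were detected per array, and arrays of 1 group correlated at 0.911 to 0.988. The Malt1 probe was lower in KO than in het cells at each time, without overlap: it read 4.39 to 5.09 against 5.78 to 6.48 at 0 h, 4.42 to 4.78 against 6.2 to 7.10 at 1 h and 5.49 to 6.24 against 6.96 to 7.56 at 4 h. In PM cells it read 4.88 to 5.74, 5.29 to 6.19 and 5.80 to 6.55 at 0, 1 and 4 h. The PM values of this probe thus also lay below the het values at each time without overlap, though narrowly at 0 and 1 h. The part of this lower Malt1 signal in the differences between PM and het cells was not tested. Where this probe lies relative to the altered part of the gene was not given. All 10 tested T cell markers were detected on every array of 7 of the 9 groups (9 of 10 in PM cells at 0 h and het cells at 4 h), so the labelled cell type had its markers. Markers of other cells were present too. The summed linear level of 8 B cell markers spanned 1597 to 5644 in PM, 1082 to 5432 in KO and 1264 to 5514 in het cells at 4 h, against 3589 to 10867, 2953 to 8122 and 3714 to 10992 at 0 h. The sum of 7 myeloid markers (Itgam, Csf1r and Itgax were not tested) spanned 643 to 1336 in PM, 729 to 1607 in KO and 682 to 1421 in het cells at 4 h, against 2251 to 4381, 3773 to 5540 and 4151 to 4730 at 0 h. The T cell sum was also lower at 4 h, at 17483 to 20387 in PM, 21737 to 25177 in KO and 14642 to 17897 in het cells, against 26813 to 28546, 28652 to 29986 and 27485 to 29696 at 0 h. Of the 10 T cell markers 2 rose and 5 fell in PM, 3 and 4 in KO, and 1 and 5 in het cells at 4 h against 0 h. Both tested CD4 and CD8 markers fell in each genotype, and of 2 NK cell markers 1 fell in PM, 2 in KO and 1 in het cells. At 1 h 0 of 8 B cell markers were called in limma in any genotype, and of 7 myeloid markers 1, 3 and 1 fell in PM, KO and het cells. The part of these marker changes in the member changes was not tested. In such bulk RNA, fewer cells of a type and less RNA per cell cannot be told apart.

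One hour of stimulation changed nearly all of the measured members in the same way in each genotype. Zc3h12a, Rc3h1, Zfp36, Zfp36l1, Btg1 and Tob1 rose, and Zc3h12d fell, in PM, KO and het cells. Counted by probe, 8 of 12 were called higher and 1 lower in PM cells, 8 and 1 in KO cells, and 9 and 1 in het cells at an adjusted p of 0.05. Of all 10961 probes tested, 9.67% rose and 10.8% fell in PM cells, 11.5% rose and 13.1% fell in KO cells, and 11.7% rose and 13% fell in het cells. An alternative scaled every array to the same median instead of quantile normalisation. The median was taken over all 25697 probes, of which at most 10291 were detected on an array, so it lay among undetected probes. This scaling left 3, 5 and 6 of the member calls and also changed the balance of all calls. It gave 255 rises among 696 calls in PM, 275 among 885 in KO and 384 among 718 in het cells, against 1060 among 2240, 1256 among 2695 and 1281 among 2709 with quantile normalisation. It also set the median probe's change at -0.29, -0.30 and -0.17, against -0.07, -0.06 and -0.07.

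By 4 h the members had separated. Zfp36l1 and Zc3h12d were above rest in every genotype, whereas Zfp36, Btg1, Tob1 and Rc3h1 were back near or below their resting levels. Between 1 and 4 h Zc3h12d rose in each genotype, and Zc3h12a, Rc3h1, Zfp36, Btg1 and Tob1 fell. Against 0 h, 4 of 12 probes were called higher and 0 lower in PM, 3 and 0 in KO, and 5 and 1 in het cells. All-probe shares of rises and falls were 22.8% and 23.9% in PM, 20.7% and 21.1% in KO, and 25.7% and 25.6% in het cells. Counted without direction, 5119, 4586 and 5626 of all 10961 probes were called, a share that the members did not exceed in any genotype. Against 1 h, 1 of 12 probes was called higher and 7 lower in each genotype. Of all probes 22.1%, 20.7% and 24.2% rose and 21.1%, 19.4% and 24.3% fell in PM, KO and het cells. At 4 h against 0 h the median scaling gave 1149 rises of 2899 calls in PM, 838 of 2197 in KO and 1428 of 3544 in het cells, against 2499 of 5119, 2269 of 4586 and 2816 of 5626. At 4 h against 1 h it gave 1536 of 2357 in PM and 1214 of 1853 in KO cells, against 2421 of 4729 and 2266 of 4391. The 1 h and 4 h comparisons of a genotype share their arrays at rest.

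**Figure D1:**
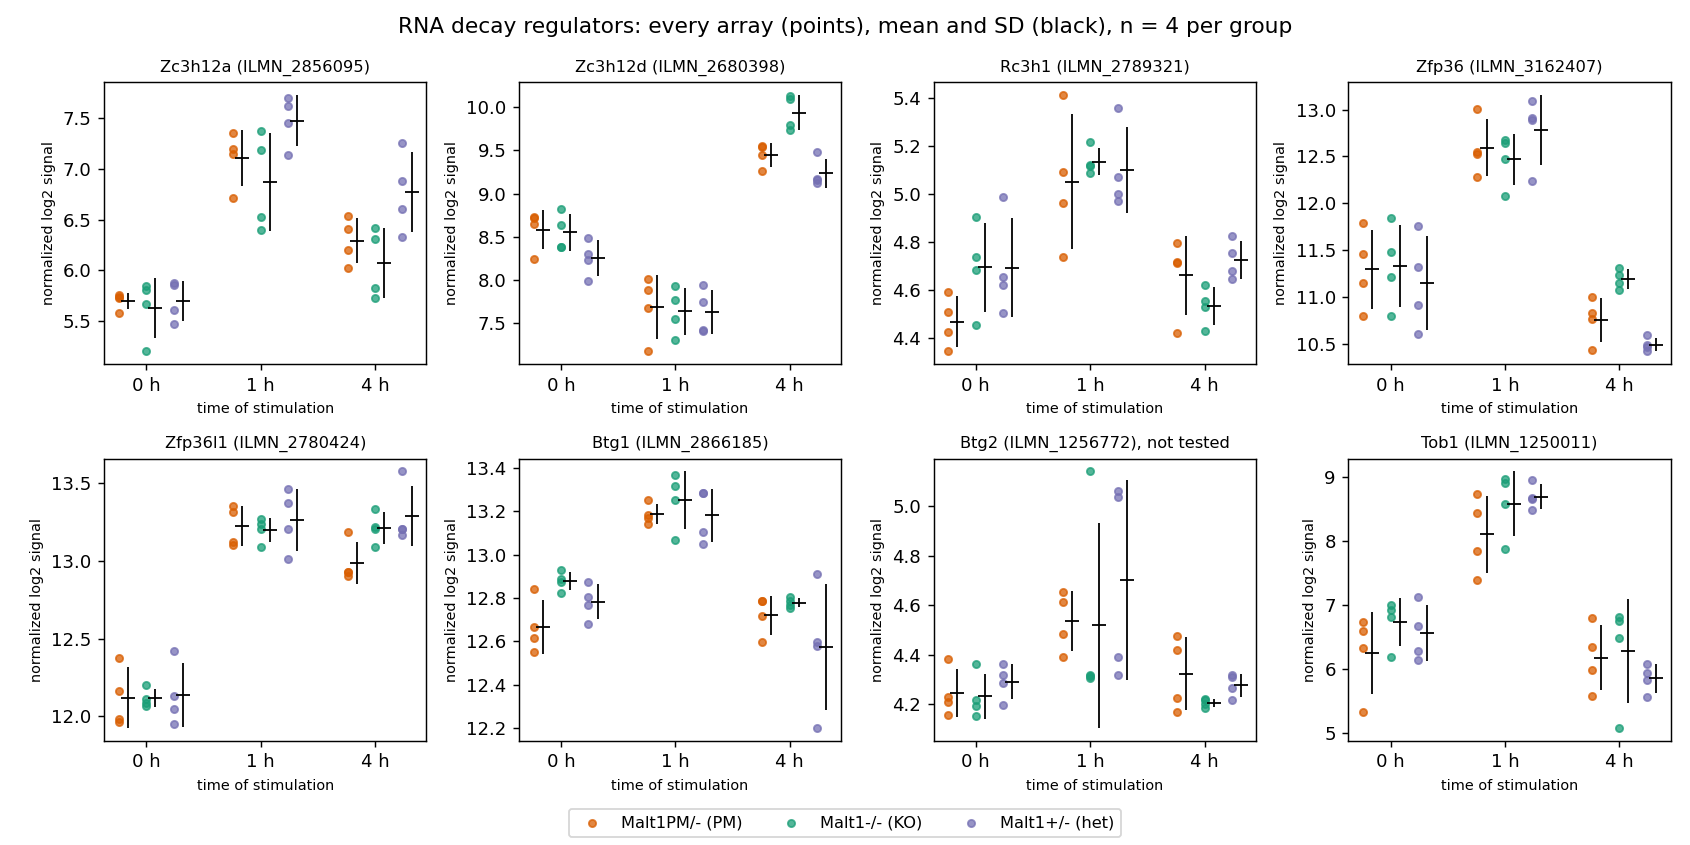
Log2 normalised signal (vertical axes) of the brightest probe of each of the 8 measured genes at 0, 1 and 4 h (horizontal axes), for PM, KO and het cells. Points are arrays, and black ticks with vertical bars are the mean and SD of 4 arrays; Zc3h12d dips at 1 h and is highest at 4 h, Zfp36 and Tob1 peak at 1 h, Zfp36l1 is above rest at both later times, and Btg2 was not tested because it stayed near background.

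**Figure D2:**
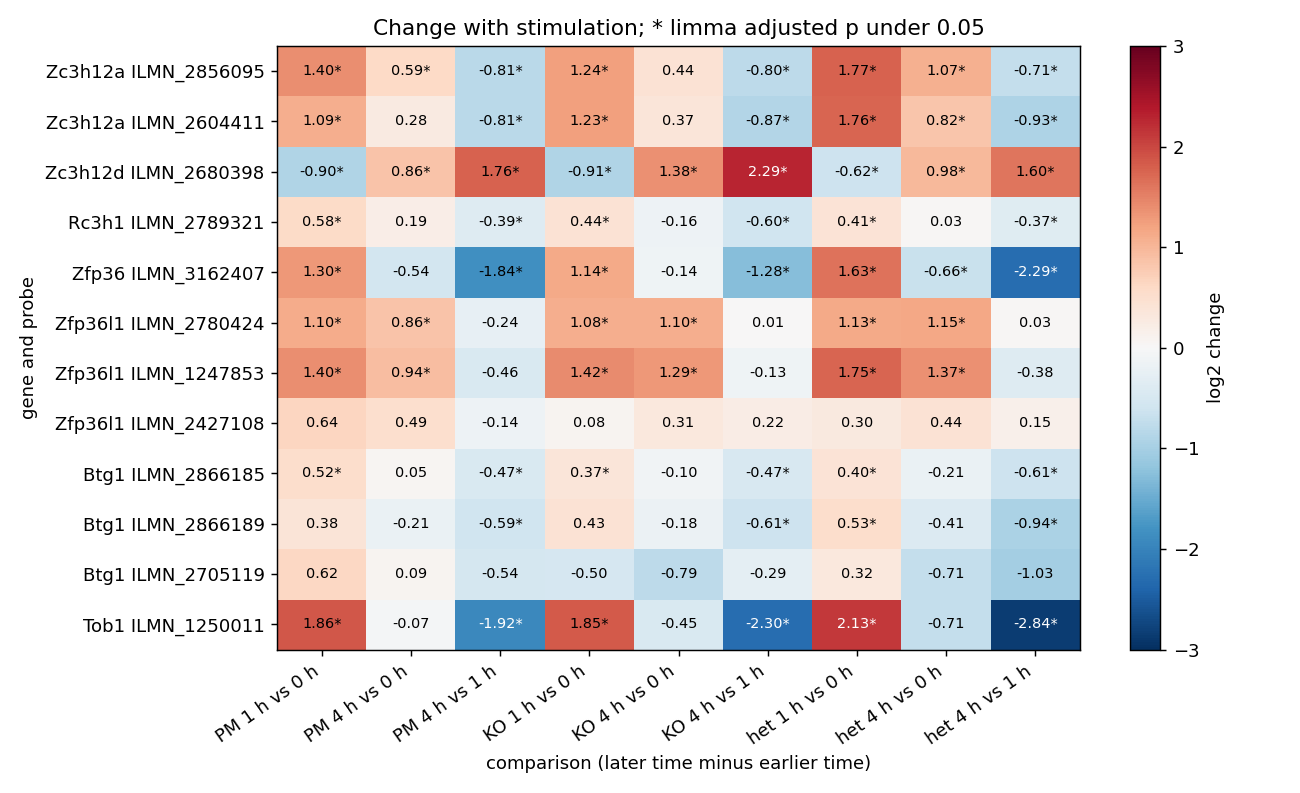
Log2 change of the 12 tested member probes (rows) in 9 time comparisons (columns), with colour showing the size and direction and an asterisk marking an adjusted p under 0.05. Rows of Zc3h12a, Zfp36, Tob1 and the Btg1 probes ILMN_2866185 and ILMN_2866189 turn from higher at 1 h to lower between 1 and 4 h, and the row of Zc3h12d does the opposite. The row of Btg1 probe ILMN_2705119 has no asterisk and is lower at 1 h in KO cells.

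Zc3h12a, the gene of Regnase-1, rose at 1 h in every genotype. Its brighter probe, ILMN_2856095, read 6.71, 7.36, 7.14 and 7.20 in PM cells at 1 h, against 5.58, 5.73, 5.75 and 5.73 at 0 h. In KO cells it read 6.52, 7.19, 6.4 and 7.37, against 5.85, 5.20, 5.67 and 5.81. In het cells it read 7.45, 7.62, 7.69 and 7.13, against 5.87, 5.47, 5.85 and 5.61. In each genotype all 4 arrays at 1 h lay above all 4 at rest. The rises were 2.64-fold in PM (log2 1.40 ± 0.21 SE, adjusted p = 8.21e-06), 2.36-fold in KO (adjusted p = 4.11e-05) and 3.42-fold in het cells (adjusted p = 1.17e-07). Under median scaling the calls of this probe were lost in PM (adjusted p = 0.119) and KO cells (adjusted p = 0.2), while those of the second probe held. Without background correction the log2 rises of ILMN_2856095 were 0.66 in PM, 0.56 in KO and 0.89 in het cells, and all 3 passed.

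The second Zc3h12a probe, ILMN_2604411, was dimmer and moved the same way. It was detected on 0 of 4 arrays of each genotype at 0 h and on 4 of 4 at 1 h, so its rises are bounds: at least 1.60-fold in PM, 1.74-fold in KO and 2.80-fold in het cells (adjusted p = 1.74e-05, 2.01e-06 and 2.69e-09). The fitted log2 rises of 1.09, 1.23 and 1.76 were 0.30, 0.35 and 0.57 without background correction, and all 3 passed. Over the 9 group means the 2 probes correlated at 0.972, computed on the same 36 arrays.

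After 4 h the Zc3h12a level had come down part of the way. ILMN_2856095 read 6.03, 6.53, 6.2 and 6.41 in PM, 6.31, 5.73, 5.83 and 6.42 in KO, and 6.88, 7.25, 6.61 and 6.33 in het cells. It was above rest by 0.59 in PM (adjusted p = 0.0208) and 1.07 in het cells (adjusted p = 7.16e-05). In KO cells the difference of 0.44 did not pass (adjusted p = 0.0944). The PM call was lost without 1 array in 3 cases (replicate 1 at 0 h, 0.55 and adjusted p = 0.0519; replicates 2 and 4 at 4 h, 0.51 and 0.55, adjusted p = 0.0693 and 0.0501), without background correction (adjusted p = 0.064) and under median scaling (adjusted p = 0.53), which also ended the het call (adjusted p = 0.126). ILMN_2604411 was at least 1.47-fold above rest in het cells (adjusted p = 0.000145). From 1 to 4 h ILMN_2856095 fell by 0.81 in PM, 0.80 in KO and 0.71 in het cells (adjusted p = 0.00206, 0.00269 and 0.00571), calls that median scaling ended (adjusted p = 0.289, 0.376 and 0.214).

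Zc3h12d encodes a relative of Regnase-1 that is expressed in lymphocytes. It was lower at 1 h and higher at 4 h than at rest. At 1 h it read 7.17, 8.01, 7.67 and 7.89 in PM, 7.31, 7.77, 7.55 and 7.93 in KO, and 7.41, 7.94, 7.74 and 7.43 in het cells. At 0 h it read 8.24, 8.71, 8.64 and 8.73 in PM, 8.38, 8.38, 8.82 and 8.63 in KO, and 7.98, 8.30, 8.49 and 8.23 in het cells. The 2 times did not overlap within any genotype. The fall was 0.90 ± 0.17 in PM (SE, adjusted p = 0.000201), 0.91 in KO (adjusted p = 0.000127) and 0.62 in het cells (adjusted p = 0.00622). Under median scaling the adjusted p was 0.0508 in PM and 0.283 in het cells.

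At 4 h Zc3h12d reached its highest level in every genotype. It read 9.26, 9.54, 9.45 and 9.55 in PM, 10.12, 9.79, 9.73 and 10.09 in KO, and 9.12, 9.48, 9.16 and 9.17 in het cells. All 12 arrays at 4 h lay above all 12 at 0 h and all 12 at 1 h. Against 1 h it rose 3.39-fold in PM, 4.90-fold in KO and 3.04-fold in het cells (adjusted p = 4.73e-10, 2.36e-12 and 1.91e-09). Against 0 h it rose by 0.86 in PM, 1.38 in KO and 0.98 in het cells (adjusted p = 8.06e-05, 5.82e-08 and 1.11e-05), of which median scaling ended the PM and het calls (adjusted p = 0.123 and 0.0659).

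Rc3h1, the gene of Roquin-1, was near background on many arrays and changed little. Its probe ILMN_2789321 read 5.09, 4.96, 4.74 and 5.41 in PM, 5.09, 5.12, 5.22 and 5.12 in KO, and 5.07, 5.0, 4.97 and 5.36 in het cells at 1 h. At 0 h it read 4.59, 4.51, 4.43 and 4.34 in PM, 4.90, 4.68, 4.74 and 4.45 in KO, and 4.51, 4.66, 4.62 and 4.99 in het cells, and it was detected on 0, 2 and 1 of the 4 arrays. In PM and KO cells the 2 times did not overlap, and in het cells they did. The rise at 1 h was at least 1.16-fold in PM (adjusted p = 0.000944), 0.44 on the log2 scale in KO (adjusted p = 0.00953) and 0.41 in het cells (adjusted p = 0.0162). From 1 to 4 h the change was -0.39 in PM cells (adjusted p = 0.0123) and -0.37 in het cells (adjusted p = 0.0141), and in KO cells the 1 h level was at least 1.17-fold that at 4 h (adjusted p = 0.000243). These 6 calls were lost both under median scaling and in the authors' processed table (adjusted p from 0.0613 to 0.504), and 3 of them when only the groups compared were fitted (adjusted p from 0.0553 to 0.112). Single arrays also ended 4 of them, with adjusted p up to 0.0871: KO at 1 h without replicate 4 at 0 h, het at 1 h without replicate 1 at 0 h or replicate 4 at 1 h, PM at 4 h against 1 h without replicate 4 at either time, and het at 4 h against 1 h without replicate 4 at 1 h.

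Zfp36, which encodes tristetraprolin, was bright at rest and rose within 1 h. ILMN_3162407 read 12.28, 12.52, 12.55 and 13.01 in PM cells at 1 h, against 11.15, 10.79, 11.78 and 11.46 at 0 h. It read 12.08, 12.48, 12.64 and 12.68 in KO cells, against 11.21, 10.80, 11.84 and 11.48, and 12.24, 12.89, 12.91 and 13.09 in het cells, against 10.92, 10.61, 11.76 and 11.32. In each genotype the 1 h arrays lay above those at rest, and at rest replicate 2 was lowest and replicate 3 highest in all 3 genotypes. The rises were 2.46-fold in PM (log2 1.30 ± 0.23 SE, adjusted p = 8.89e-05), 2.20-fold in KO (adjusted p = 0.000358) and 3.10-fold in het cells (adjusted p = 2.23e-06).

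Zfp36 had come down again by 4 h. It read 10.99, 10.76, 10.43 and 10.83 in PM, 11.23, 11.07, 11.15 and 11.31 in KO, and 10.46, 10.59, 10.42 and 10.48 in het cells. From 1 to 4 h it fell by 1.84 in PM, 1.28 in KO and 2.29 in het cells (adjusted p = 7.6e-08, 3.42e-05 and 6.51e-10). Against rest it was lower by 0.66 in het cells (log2 -0.66, adjusted p = 0.0164). The differences from rest in PM (-0.54, adjusted p = 0.0529) and KO cells (-0.14) did not pass. The het call was lost without replicate 3 at 0 h (-0.46, adjusted p = 0.107) and under median scaling (adjusted p = 0.209).

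Zfp36l1, a close relative of Zfp36 that binds the same AU-rich elements, rose at 1 h and was still above rest at 4 h. ILMN_2780424, among the brightest member probes, read 13.32, 13.11, 13.12 and 13.35 in PM, 13.27, 13.09, 13.24 and 13.20 in KO, and 13.37, 13.01, 13.20 and 13.46 in het cells at 1 h. At 0 h it read 11.96, 11.98, 12.38 and 12.16 in PM, 12.20, 12.09, 12.11 and 12.07 in KO, and 12.13, 11.95, 12.42 and 12.05 in het cells. Every array at 1 h lay above every array at rest. The rise was 1.10 ± 0.12 in PM (SE, adjusted p = 3.15e-08), 1.08 in KO (adjusted p = 3.64e-08) and 1.13 in het cells (adjusted p = 1.68e-08).

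At 4 h ILMN_2780424 read 12.93, 12.90, 12.93 and 13.18 in PM, 13.09, 13.33, 13.22 and 13.20 in KO, and 13.20, 13.58, 13.20 and 13.17 in het cells. These levels were above rest by 0.86, 1.10 and 1.15 in PM, KO and het cells (adjusted p = 4.2e-07, 6.75e-09 and 1.26e-09). The probe ILMN_1247853 had group means of 9.84, 11.24 and 10.78 in PM, 9.77, 11.18 and 11.06 in KO, and 9.56, 11.31 and 10.92 in het cells at 0, 1 and 4 h. It rose by 1.40, 1.42 and 1.75 at 1 h (adjusted p = 2.97e-06, 1.87e-06 and 4.06e-08; in PM 0.0567 under median scaling) and stood 0.94, 1.29 and 1.37 above rest at 4 h in PM, KO and het cells (adjusted p = 0.000189, 2.5e-06 and 5.51e-07). Between 1 and 4 h it differed by -0.46 in PM cells (adjusted p = 0.0555), and with the replicate number as a block, which pairs the arrays there, the adjusted p was 0.0282. It was also 0.0446 without background correction and 0.0488 with detection required on all 4 arrays of a group, and median scaling gave 0.822. The other 2 Zfp36l1 probes did not pass between 1 and 4 h.

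Btg1, an antiproliferative gene that is abundant in resting lymphocytes, was high at rest and rose a little at 1 h. ILMN_2866185 read 13.14, 13.17, 13.25 and 13.18 in PM, 13.07, 13.32, 13.37 and 13.25 in KO, and 13.11, 13.05, 13.29 and 13.29 in het cells at 1 h. At 0 h it read 12.61, 12.66, 12.84 and 12.55 in PM, 12.87, 12.82, 12.89 and 12.93 in KO, and 12.77, 12.68, 12.87 and 12.81 in het cells. The times did not overlap in any genotype. The rise was 0.52 in PM, 0.37 in KO and 0.40 in het cells (adjusted p = 0.000583, 0.00999 and 0.00583), and from 1 to 4 h the probe fell by 0.47, 0.47 and 0.61. All 6 of these calls of ILMN_2866185 were lost under median scaling (adjusted p from 0.0749 to 0.517), and the rise in KO cells also when only the 2 groups were fitted (adjusted p = 0.0586).

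The second bright Btg1 probe, ILMN_2866189, had group means of 12.01, 12.40 and 11.81 in PM, 12.02, 12.45 and 11.84 in KO, and 11.94, 12.47 and 11.53 in het cells at 0, 1 and 4 h. At 1 h it was higher by 0.53 in het cells (adjusted p = 0.0249), a call lost without any of 4 single arrays (replicate 4 at 0 h, and replicates 1, 3 and 4 at 1 h, adjusted p from 0.0501 to 0.0767) and under median scaling (adjusted p = 0.345). The differences in PM (0.38, adjusted p = 0.133) and KO cells (0.43, adjusted p = 0.0728) did not pass, and the KO difference had an adjusted p of 0.0315 with the replicate number as a block. From 1 to 4 h it fell by 0.59 in PM, 0.61 in KO and 0.94 in het cells, calls that median scaling also ended (adjusted p from 0.0865 to 0.546); fitting only the groups compared ended the KO call (adjusted p = 0.0534). At 4 h against rest the het difference was -0.41 (adjusted p = 0.0506, and 0.0235 with the block).

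Tob1, a gene of the same family linked to T cell quiescence, rose at 1 h in PM, KO and het cells. It read 8.45, 7.84, 8.74 and 7.40 in PM cells at 1 h, against 6.60, 6.34, 6.74 and 5.33 at 0 h. It read 8.91, 8.58, 8.98 and 7.88 in KO cells, against 6.93, 6.19, 7.0 and 6.82, and 8.66, 8.49, 8.96 and 8.67 in het cells, against 6.15, 6.29, 7.13 and 6.68. No array at 1 h read as low as any array at rest. The rises were 3.62-fold in PM (log2 1.86 ± 0.34 SE, adjusted p = 0.000164), 3.61-fold in KO (adjusted p = 0.000132) and 4.38-fold in het cells (adjusted p = 1.93e-05). Median scaling ended the PM and KO calls (adjusted p = 0.0957 and 0.0854). Without background correction the log2 rises were 1.11, 1.25 and 1.42 in PM, KO and het cells, and all 3 passed.

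By 4 h the Tob1 signal had dropped again, and it differed from rest beyond the threshold in no genotype. It read 6.80, 6.35, 5.59 and 6.0 in PM, 6.76, 6.49, 6.82 and 5.09 in KO, and 5.95, 6.09, 5.83 and 5.57 in het cells. The change from 1 to 4 h was -1.92 in PM, -2.30 in KO and -2.84 in het cells (adjusted p = 2.75e-05, 2.26e-06 and 3.04e-08), and without background correction -1.15, -1.44 and -1.74. Against 0 h the het difference of -0.71 did not pass (adjusted p = 0.0878), and with the replicate number as a block its adjusted p was 0.0282.

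Btg2, an immediate early gene in many cell types, was seen on few arrays. Its probe ILMN_1256772 read 4.39, 4.48, 4.61 and 4.65 in PM cells at 1 h, with 0 of 4 arrays detected. It read 4.31, 5.14, 4.31 and 4.32 in KO cells, with 1 detected, and 4.39, 4.32, 5.04 and 5.06 in het cells, with 2 detected. At 0 and 4 h it stayed between 4.15 and 4.48 in all 3 genotypes. The 3 detected values were all at 1 h. In the alternative fit without a filter on dim probes, the change from 1 to 4 h was -0.43 in het cells (adjusted p = 0.0351). In PM and KO cells it was -0.21 and -0.31 and did not pass (adjusted p = 0.44 and 0.177). The rise from 0 to 1 h in het cells, 0.41, did not pass either (adjusted p = 0.0796). A level this near background limits all of these values.

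Probes of 1 gene did not always agree. The Btg1 probe ILMN_2705119 read 5.98, 7.46 and 7.43 in replicate 4 of PM cells, 11.07, 7.90 and 8.78 in replicate 4 of KO cells, and 11.43, 11.74 and 9.23 in replicate 4 of het cells at 0, 1 and 4 h. Replicate 4 lay below its group mean in 9 of 9 groups, while replicates 1 to 3 read 10.9 to 12.99. No comparison of this probe was called. The dim Zfp36l1 probe ILMN_2427108 was detected on 9 arrays and lay above its group mean in replicate 2 in 9 of 9 groups. At 1 and 4 h it read 5.98 and 5.90 in PM, 5.38 and 5.92 in KO, and 5.52 and 6.41 in het cells of replicate 2. The replicate number therefore moved with both probes, and its source was not tested.

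**Figure D3:**
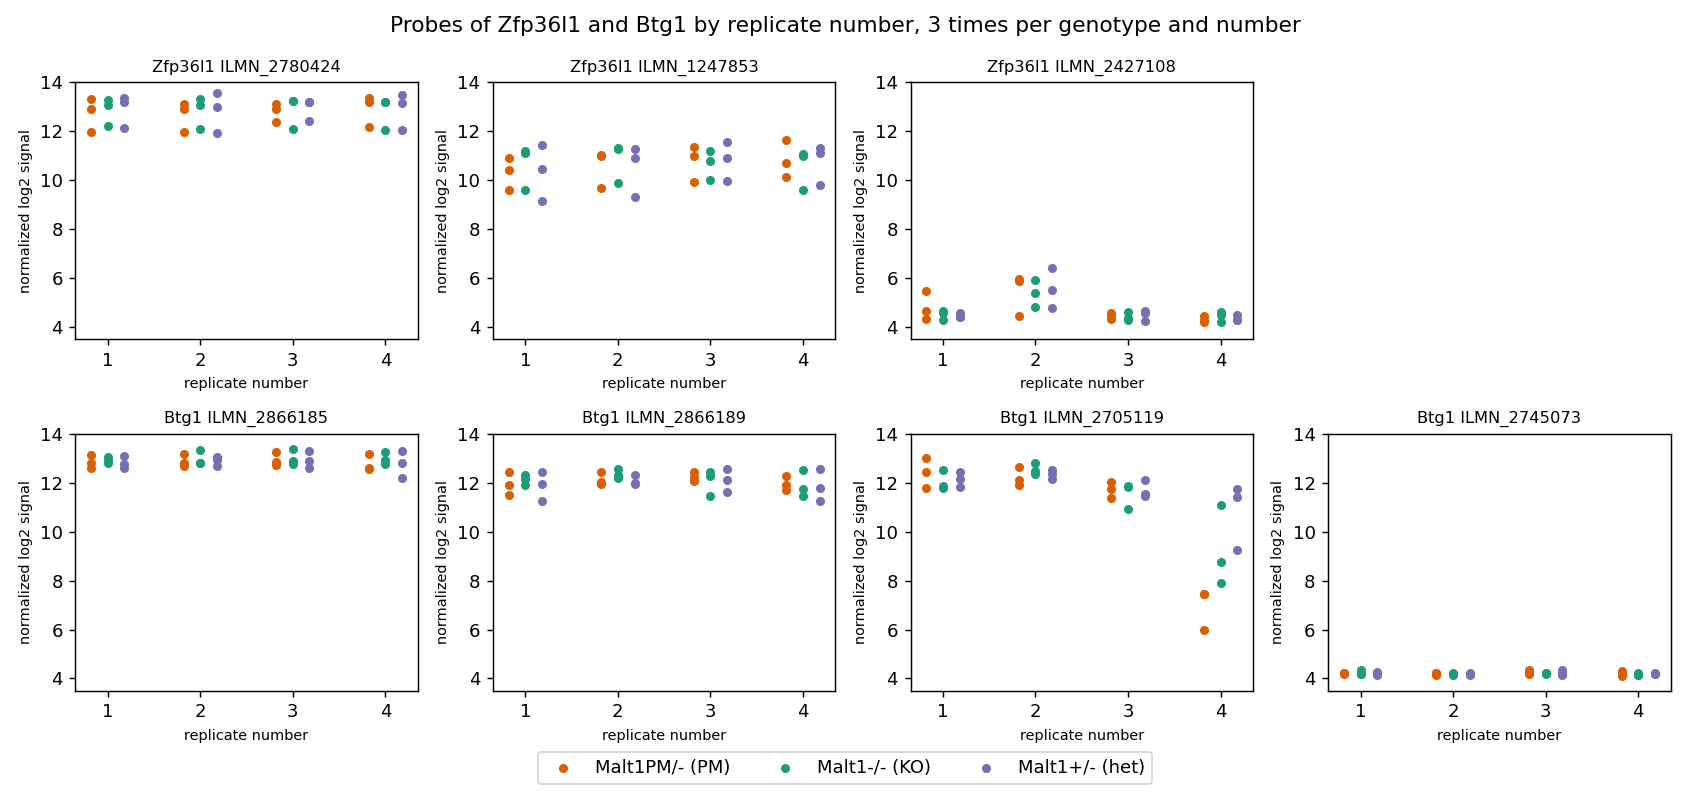
Log2 normalised signal (vertical axis) of the 3 Zfp36l1 probes and the 4 Btg1 probes on all 36 arrays, arranged by replicate number. Btg1 probe ILMN_2705119 drops to between 5.98 and 11.7 in replicate 4, and Zfp36l1 probe ILMN_2427108 is raised in replicate 2.

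Between genotypes no member passed the threshold at rest or after 1 h. At 0 h, 0 of 12 probes were called and 0 of 12 had an unadjusted p under 0.05 between PM and het, KO and het, or PM and KO cells. Of all probes 0.073%, 0.0365% and 0.0547% were called in these comparisons, and 360, 169 and 345 of 10961 had an unadjusted limma p under 0.05. At 1 h 0 of 12 were called too, beside 0.146% of all probes between PM and het, 0.0365% between KO and het and 0.0182% between PM and KO cells. The unadjusted limma p was under 0.05 for 1, 2 and 0 member probes, all of Zc3h12a. It was under 0.05 for 453, 235 and 427 of all 10961 probes. The 3 comparisons at a time share their arrays.

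At 1 h Zc3h12a had lower values in PM and KO cells than in het cells. ILMN_2604411 read 5.16, 5.42, 5.93 and 5.54 in PM and 5.43, 5.46, 5.61 and 6.0 in KO, against 6.23, 6.09, 6.26 and 6.55 in het cells. All 8 mutant arrays lay below all 4 het arrays. The PM difference was -0.77 ± 0.17 (SE, adjusted p = 0.055), and with the replicate number as a block, which pairs these arrays, the adjusted p was 0.0297. The KO difference was -0.66 (adjusted p = 0.373). For ILMN_2856095 the differences were -0.37 in PM and -0.61 in KO cells, each with an adjusted p of 1, and groups overlapped.

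At 4 h the 2 Regnase genes differed between mutant and het cells in opposite directions, and Zfp36 lay near the threshold. Zc3h12a was lower in PM and in KO cells than in het cells, and Zc3h12d was higher in KO cells. Between PM and het cells 1 of 12 member probes was called, beside 2.14% of all probes. Between KO and het cells 3 of 12 were called, beside 7.37% of all probes. Between PM and KO cells 0 of 12 were called, beside 2.1% of all probes. The unadjusted limma p was under 0.05 there for 1 member probe and for 1072 of all 10961 probes. Under median scaling 0 member probes were called in any of these comparisons, and the rises among all calls numbered 23 of 88 between KO and het and 27 of 36 between PM and KO cells, against 473 of 808 and 109 of 230 with quantile normalisation. With the replicate number as a block, which pairs the PM and het and the KO and het arrays at 4 h, all-probe calls numbered 447 and 1440, against 235 and 808 without it.

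**Figure D4:**
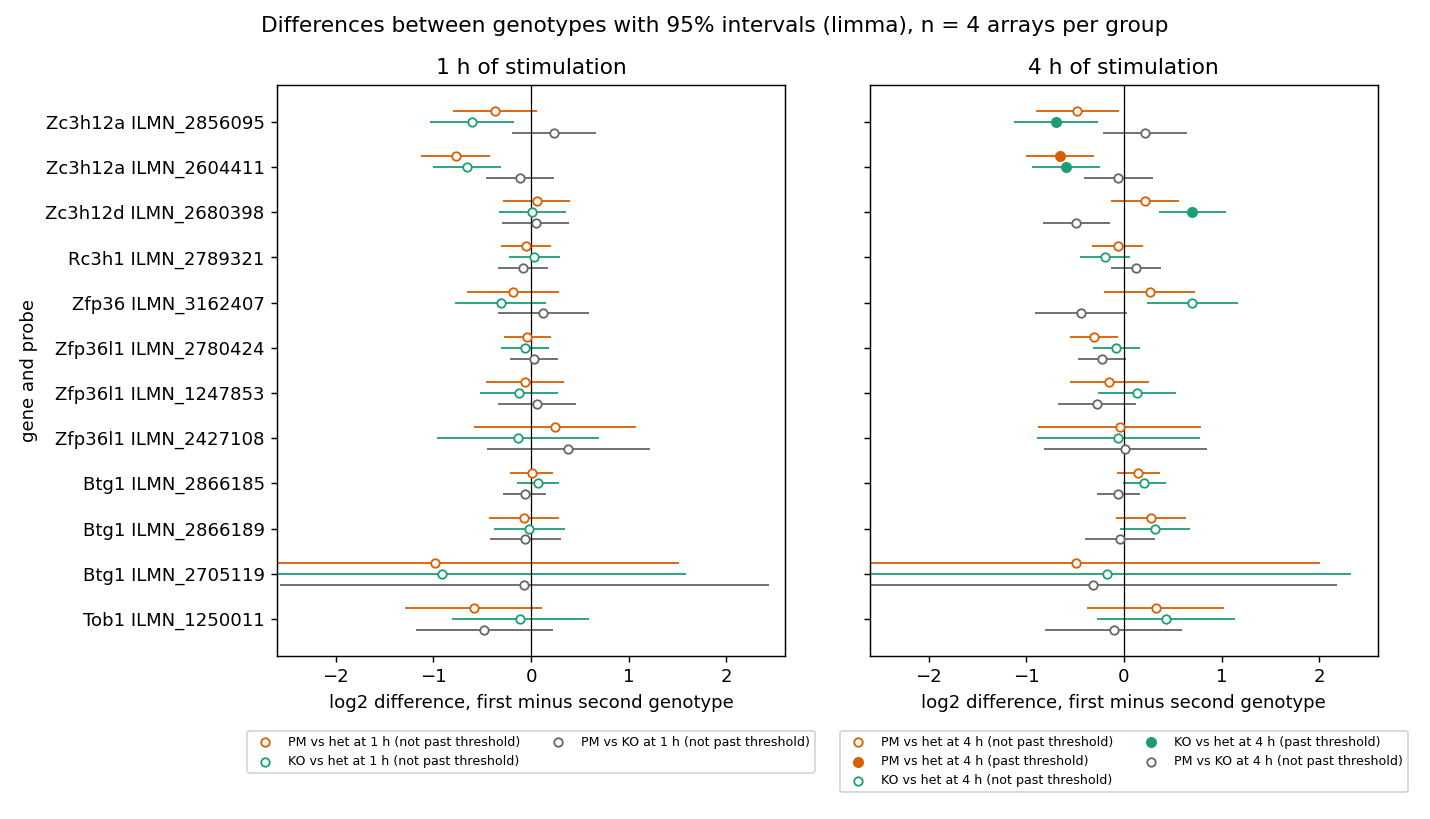
Log2 difference (horizontal axis) of each tested member probe between genotypes at 1 h and 4 h, with 95% intervals; filled points passed the adjusted threshold, and the intervals of Btg1 probe ILMN_2705119 run past the axis. At 4 h the filled points are the Zc3h12a probes below 0 (1 in PM, 2 in KO against het) and Zc3h12d above 0 in KO against het cells.

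For Zc3h12a at 4 h, ILMN_2604411 read 4.68, 4.75, 4.88 and 4.50 in PM and 4.78, 4.84, 4.24 and 5.17 in KO, against 5.41, 5.60, 5.40 and 5.0 in het cells. PM and het arrays did not overlap, and KO arrays overlapped het arrays. The differences were -0.65 ± 0.17 in PM (SE, 95% interval -1.0 to -0.30, adjusted p = 0.0344) and -0.59 ± 0.17 in KO (SE, adjusted p = 0.0271), with detection on 2 of 4 arrays in each mutant and 3 of 4 in het cells. ILMN_2856095, whose values are above, differed by -0.69 ± 0.21 in KO (SE, 95% interval -1.12 to -0.27, adjusted p = 0.0362) and by -0.48 in PM cells (adjusted p = 0.429).

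These 3 Zc3h12a calls depended on single arrays. The PM call of ILMN_2604411 was lost without any of 6 of the 8 arrays (PM replicates 1, 2 and 4, het replicates 1, 2 and 3; -0.57 to -0.77, adjusted p up to 0.141), and under 5 of the alternatives (adjusted p from 0.0576 to 0.823). In KO cells, ILMN_2856095 was lost without KO replicates 2 or 3 or het replicates 1, 2 or 3 (-0.53 to -0.84, adjusted p up to 0.15), and ILMN_2604411 without KO replicates 1 or 3 or the same het replicates (-0.42 to -0.73, adjusted p up to 0.163). Each KO call was also lost under 4 of the alternatives (adjusted p from 0.0504 to 0.934 and from 0.0652 to 0.425).

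Zc3h12d at 4 h read 10.12, 9.79, 9.73 and 10.09 in KO cells, against 9.12, 9.48, 9.16 and 9.17 in het cells, with no overlap. It was 1.63-fold higher (log2 0.70 ± 0.17 SE, 95% interval 0.36 to 1.05, adjusted p = 0.00733), and the call held without each of the 8 arrays. Median scaling ended it (adjusted p = 1). PM cells, at 9.26 to 9.55, differed from het cells by 0.21 (95% interval -0.13 to 0.56, adjusted p = 0.894) and from KO cells by -0.49 without overlap (adjusted p = 0.17).

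Zfp36 at 4 h read 11.07 to 11.31 in KO cells, above all 4 het arrays at 10.42 to 10.59. The difference of 0.70 ± 0.23 (SE, 95% interval 0.23 to 1.17) had an adjusted p of 0.0588, and with the replicate number as a block one of 0.0137. PM cells differed from het cells by 0.26 (adjusted p = 0.924). For ILMN_2780424 of Zfp36l1 the PM difference was -0.30 (adjusted p = 0.309) and the KO difference -0.08 (adjusted p = 0.845). T cell markers moved in the same comparisons at 4 h: 5 of 10 were higher and 1 lower in KO than in het cells, and 2 higher and 0 lower in PM than in het cells. Their summed level was 17483 to 20387 in PM and 21737 to 25177 in KO, against 14642 to 17897 in het cells, and its part in the member differences was not tested. No tested B cell or myeloid marker was called between genotypes at 4 h, while 1 of 2 NK cell markers was higher in KO than in het cells and 1 lower in PM than in KO cells, and their part was not tested either.

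No member's response to stimulation differed between genotypes beyond the threshold. For the response from 0 to 1 h, 0% of all probes were called in each of the 3 genotype comparisons. For the response from 0 to 4 h, 0.119% of all probes were called between PM and het, 1.51% between KO and het and 0.201% between PM and KO cells, and 0 of 12 member probes in each. The 5 member values with an unadjusted p under 0.05 in limma were all of the Regnase genes. Of all 10961 probes, 84, 78 and 95 were under 0.05 for the 1 h responses (PM and het, KO and het, PM and KO). For the 4 h responses these were 529, 1091 and 521. For ILMN_2604411 of Zc3h12a the 1 h response differed from that of het cells by -0.67 in PM (adjusted p = 1) and -0.52 in KO cells (adjusted p = 1). At 4 h the response difference was -0.55 for this probe in PM cells (adjusted p = 0.978) and -0.63 for ILMN_2856095 in KO cells (adjusted p = 0.471). For Zc3h12d the 4 h response of PM cells differed from that of KO cells by -0.52 (adjusted p = 0.981). The 95% intervals of these 5 differences lay between -1.23 and -0.02.

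Over the 9 group means the members fell into few patterns. Zfp36, Btg1 and Tob1 ran close together: Zfp36 and Tob1 correlated at 0.971, and ILMN_2866185 of Btg1 with Tob1 at 0.978 and with Zfp36 at 0.958. Zc3h12d ran against them, at -0.830 with Zfp36 and -0.845 with Tob1. Zfp36l1 correlated with Zc3h12a at 0.839 and with Zfp36 at 0.317. All these points come from the same 36 arrays. Among tested probes of other genes, the group means most like those of Zc3h12a were those of Ctdp1, Rbm12 and Nr1d2 (Pearson r from 0.984 to 0.978), and for Zc3h12d those of Ints5, Tsc2 and Tmem199 (0.986 to 0.983). For Rc3h1 they were Usp22, Actr5 and Trp53bp2 (0.985 to 0.978), for Zfp36 Esyt2, Zfp64 and Frat2 (0.992 to 0.987), and for Zfp36l1 Zc3hc1, Sh3d21 and Nfkbib (0.993 to 0.988). For Btg1 they were Fam107b, Dtx2 and Pja1 (0.991 to 0.986), and for Tob1 Ier2, Kin and Kctd12 (0.993 to 0.992).

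mRNAs known as targets of Regnase-1 and Roquin rose with stimulation while their regulators changed. With 1 probe a gene, 12 of the 18 listed targets were tested. The list shares Tnf, Nfkbid, Nfkbiz and Rel with a list of NF-kB targets, and Egr1, Myc and Ier3 with a list of immediate early genes. At 1 h, 10 rose and 0 fell in PM, 10 and 0 in KO, and 11 and 0 in het cells, with median changes of 2.33, 2.41 and 2.63. In het cells Irf4, a transcription factor of activated T cells, rose by 4.48, the cytokine gene Tnf by 4.07 and Nfkbid by 3.65. Among all 7585 genes tested 10.1% rose and 12.6% fell in PM, 12.1% and 15% in KO, and 12.3% and 15.1% in het cells at 1 h. At 4 h against rest, 11 rose in PM, 10 rose and 1 (Gata3, -1.14) fell in KO, and 11 rose in het cells, with medians of 1.99, 1.99 and 2.64. Among all genes 23.6% rose and 26.7% fell in PM, 21.9% and 23.5% in KO, and 26.6% and 28% in het cells. In het cells at 1 h, 14 of 21 tested NF-kB targets and 15 of 21 tested immediate early genes rose, and 0 of either list fell.

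At 4 h several of these targets were lower in mutant than in het cells. Between PM and het cells 0 were higher and 3 lower, Tnf (-1.02, adjusted p = 0.00656), the costimulatory receptor gene Tnfrsf4 (-0.94, adjusted p = 0.00426) and Nfkbid (-0.88, adjusted p = 0.00247). With the replicate number as a block 2 were higher and 3 lower. Between KO and het cells 1 was higher, the immediate early gene Egr1 (0.82, adjusted p = 0.00314), and 4 were lower, among them Tnfrsf4 (-1.82, adjusted p = 8.45e-08), Tnf (-1.24, adjusted p = 0.000348) and Ier3 (-1.04, adjusted p = 0.00294). Medians were -0.28 and -0.47. Of all genes 1.83% were higher and 0.672% lower in PM, and 4.9% and 3.34% in KO cells. Under median scaling 0 targets were called in PM and 2 in KO cells. Of 21 tested NF-kB targets 0 were higher and 3 lower in each mutant than in het cells at 4 h (Bcl2l1, Tnf and Nfkbid). Of 21 tested immediate early genes 0 were called in PM, and in KO cells Egr1 was higher and Ier3 lower. The part of the shared genes in the target differences was not tested.

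Of 26 listed AU-rich targets of the ZFP36 family 20 were tested. The 26 share Tnf, Myc, Ier3, Il6, Cxcl1 and Ptgs2 with the list of Regnase-1 and Roquin targets. They also share Fos, Dusp1, Ier3 and Myc with the list of immediate early genes, and Tnf with that of NF-kB targets. The part of these shared genes in the changes was not tested. In het cells 12 rose and 0 fell at 1 h, beside 12.3% and 15.1% of all genes, with Ccl4, a chemokine gene, up by 4.78 and Plk3 by 4.59. At 4 h 12 rose and 2 fell, beside 26.6% and 28% of all genes, with Ccl4 up by 6.63 and Ccl3 by 3.81, and with Bcl2 (-1.47) and Ccnd1 (-0.84) lower. At 4 h the cytokine genes Il3 (1.38, adjusted p = 0.0017), Csf2 (1.23, adjusted p = 0.000318) and Ifng (1.21, adjusted p = 0.0465) were higher in PM than in het cells, where 4 targets were higher and 1 lower. Between KO and het cells 1 was higher, the survival gene Bcl2 (1.08, adjusted p = 0.00182), and 4 lower, among them Ccl4 (-2.14, adjusted p = 0.0164). With the replicate number as a block 8 were lower in KO cells. Of all genes 1.83% were higher and 0.672% lower in PM, and 4.9% and 3.34% in KO cells. Under median scaling 2 targets were called in each mutant.

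**Figure D5:**
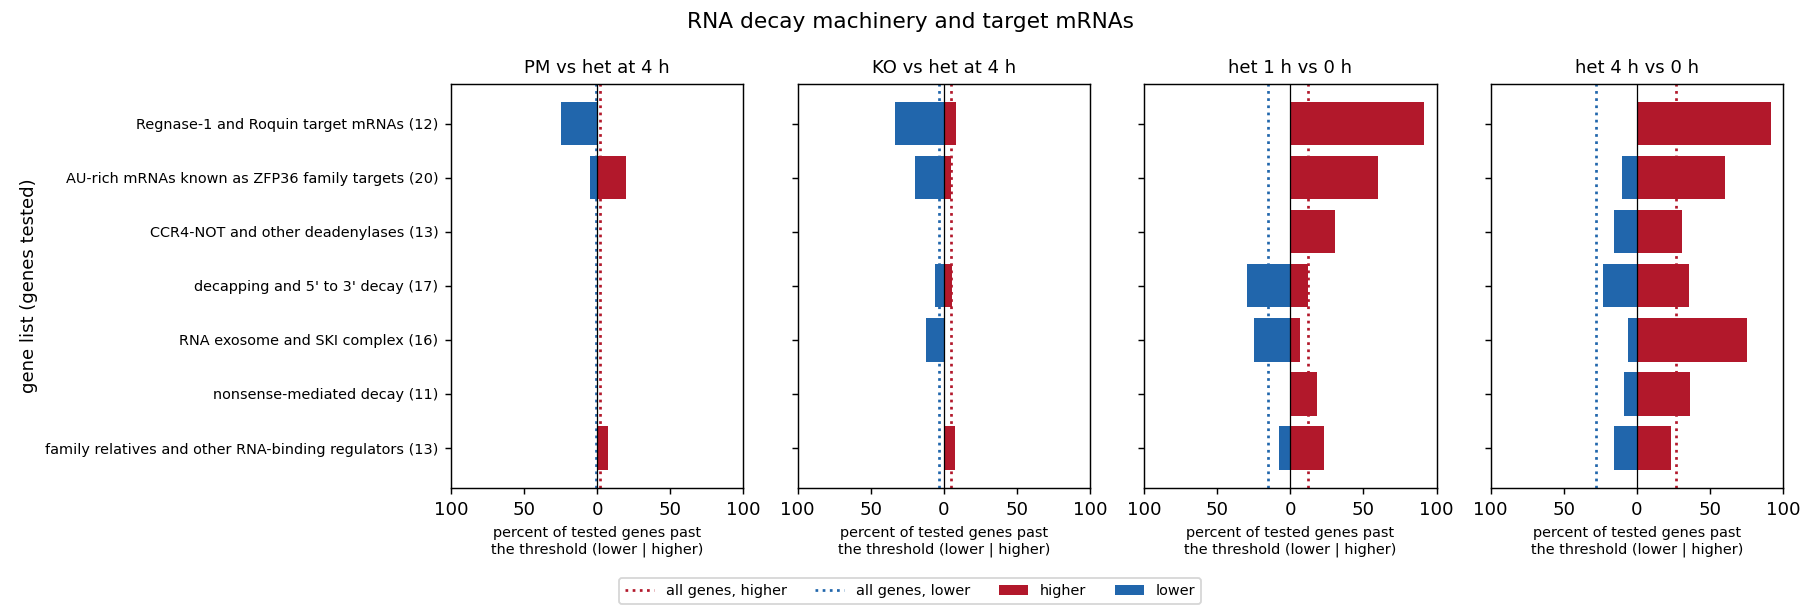
Percent of tested genes of 7 lists that were higher or lower in PM against het and KO against het cells at 4 h, and in het cells at 1 h and at 4 h against 0 h, with dotted lines for all 7585 genes. Target lists reach far past the line of all genes for rises with stimulation, and deadenylase genes show no call between genotypes.

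The machinery that these regulators recruit changed less uniformly. Of 13 tested deadenylase genes 4 rose and 0 fell at 1 h in het cells, with Noct (0.98), Pde12 (0.78) and Cnot6l (0.65) highest. At 4 h 4 rose, with Noct (1.93), Pde12 (1.39) and Cnot9 (0.50) highest, and Cnot6l (-0.50) and Angel2 (-0.41) fell. Of all genes 12.3% rose and 15.1% fell at 1 h, and 26.6% and 28% at 4 h, so the share of deadenylase genes that rose by 4 h was near that of all genes. None of the 13 was called between PM or KO and het cells at 4 h. Of 17 decapping genes 2 rose at 1 h (Patl1 0.78, Ddx6 0.68) and 5 fell, with Nudt16 (-1.06) lowest. At 4 h 6 rose and 4 fell, among them Lsm2 (1.23), Nudt16 (-1.84) and the exonuclease gene Xrn1 (-0.97), shares also near those of all genes. In KO against het cells at 4 h Nudt16 was higher (0.62) and Lsm2 lower (-0.61), and in PM against het cells 0 were called (1 with the replicate number as a block). Under median scaling 0 of the deadenylase and 0 of the decapping genes were called in het cells at 1 h, and 2 and 3 at 4 h.

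Genes of the exosome and the SKI complex, which degrade RNA from its 3′ end, shifted upward by 4 h. Of 16 tested, 1 rose (Hbs1l, 0.74) and 4 fell at 1 h in het cells, with Exosc7 (-0.87), Exosc4 (-0.82) and Exosc5 (-0.70) lowest. At 4 h 12 rose and 1 (Dis3l, -0.49) fell, with Exosc6 (1.75), Exosc2 (1.47) and Wdr61 (1.43) highest and a median of 0.71. Of all genes 12.3% rose and 15.1% fell at 1 h, and 26.6% and 28% at 4 h. In PM and in KO cells 10 rose and 1 fell at 4 h, beside 23.6% and 26.7% of all genes in PM and 21.9% and 23.5% in KO cells. In KO against het cells Wdr61 (-0.53) and Mphosph6 (-0.51) were lower at 4 h, beside 3.34% of all genes. Under median scaling 0 exosome genes were called between KO and het cells at 4 h, and 3 at 1 h and 8 at 4 h in het cells. Of 11 genes of nonsense-mediated decay 2 rose at 1 h and 4 rose and 1 fell at 4 h in het cells, so the shares of rises were near those of all genes, and under median scaling 0 and 3 were called.

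Among 13 tested genes of other RNA-binding regulators, Tob2, the paralogue of Tob1, rose by 3.42 in het cells at 1 h, with Arid5a (1.09) and Pabpc1 (0.58), and Tia1 fell (-1.22). At 4 h Pabpc4 (1.85), Khsrp (0.77) and Pcbp1 (0.73) rose, and Arid5a (-0.92) and Tia1 (-0.62) fell. With the replicate number as a block, which pairs these arrays, 9 were called at 4 h, against 5 without it. Arid5a encodes a protein known to stabilise mRNAs that Regnase-1 destabilises. At 4 h it was higher than in het cells, with a log2 difference of 0.75 for PM cells (adjusted p = 0.00928) and 1.10 for KO cells (adjusted p = 4.69e-05). It was the only gene of this list called in either comparison, and both calls were lost under median scaling. Both genotype comparisons share the het arrays.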

How the data were processed

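The 36 Illumina bead arrays fall into 9 groups of 4 by the sample labels. Per the file headers, the deposited signal intensities are linear and non-normalised, each with a detection p-value deposited beside it. Arrays were read with GenomeStudio 2011.1, per the submitters' processing notes. A second deposited table holds intensities processed by the authors and ranks probes within each array as the raw signals do. Its 75th percentile is 42.6 on every array, its medians run from 3.73 to 3.81 and some values are negative; its scaling method is not given in the sources used here. The arrays name no genome build.

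Raw signals were corrected by the normexp model with background from the detection p-values, quantile-normalised and, with an offset of 16 added, log2-transformed (neqc, limma 3.58.1, R 4.3.3). Probes with detection p under 0.01 on at least 4 arrays were tested, 10961 in all. A linear model of group means over the 36 arrays was fitted with moderated variances (27 residual degrees of freedom), for 24 comparisons, and every adjusted p is limma's with Benjamini-Hochberg adjustment over all tested probes within a comparison, two-sided, with a threshold of 0.05. For gene lists the brightest tested probe stood for a gene (7585 genes). A probe detected on 0 arrays of a group is given as "at least N-fold", its bright group's mean against the higher of the lowest detected signal and its own signal on each dim array. The number of arrays limits the precision. The procedure was tested on simulated data. Figures were drawn with matplotlib 3.10.9 (Python 3.11.15).

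The members and lists were chosen with earlier results of these data known, and no list was tested. Named genes are the members, the 3 genes with the most similar group means for each, the 3 largest called rises and falls of each list in a comparison described, and Malt1. Alternatives were scaling to a common median, no background correction, the authors' table (floored and logged), other filters, 1 probe a gene, the replicate number as a block, only the groups compared and leaving out each array. The common median was that of all 25697 probes, most of which were not detected on a given array. Replicate numbers were taken to pair arrays across groups where the deviations of all 4 same-numbered pairs correlated over 0.1, which held in 14 of the 24 comparisons. The titles carry the same 4 E numbers in all 9 groups, matching replicates 1 to 4, without saying what a number shares, so the pairing comes from the data.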

Additional observations from a re-analysis of the deposited data

Results flagged for a closer look

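Single arrays stood apart from the other 3 of their group, by the gap test for 4 values, in 9 of 108 groups of member probes; chance flags about 1 in 20 groups. Of these, 4 belong to the 2 probes that moved with the replicate number. Btg1 probe ILMN_2705119 read 5.98 in replicate 4 of PM cells at 0 h, against 11.9 to 12.4 in the others, and 7.43 in replicate 4 of PM cells at 4 h, against 11.4 to 12.1. Zfp36l1 probe ILMN_2427108 read 5.90 in replicate 2 of PM cells at 4 h, against 4.46 to 4.67, and 6.41 in replicate 2 of het cells at 4 h, against 4.27 to 4.6.

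The other gaps were small. Zc3h12a probe ILMN_2856095 read 5.58 in replicate 1 of PM cells at 0 h, against 5.73 to 5.75. Zc3h12d read 9.48 in replicate 2 of het cells at 4 h, against 9.12 to 9.17. Zfp36l1 probe ILMN_2780424 read 13.18 in replicate 4 of PM cells at 4 h, against 12.90 to 12.93, and 13.58 in replicate 2 of het cells at 4 h, against 13.17 to 13.20. Btg1 probe ILMN_2866189 read 12.26 in replicate 4 of PM cells at 1 h, against 12.42 to 12.45.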

How the results depend on the processing

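Of 69 called member values 34 were kept under every alternative and without each array, and 59 without each array. Of 219 values not called 11 passed under some setting, and 0 called values reversed. Median scaling kept 34 of 69 calls, no background correction 65, no filter 67, the authors' table and only the groups compared 61 each, a filter of all 4 arrays of a group 69, the replicate block 69, and 1 probe a gene 50 of 50; the cause of the losses was not tested. In comparisons that missed the pairing rule, the replicate block gave limma adjusted p-values under the threshold as well. These were 0.0188 for Zfp36 in PM cells at 4 h against 0 h and 0.0425 for Zc3h12d between PM and KO cells at 4 h. The lowest pair correlation was 0.098 (median 0.54) in the former and -0.029 (median 0.42) in the latter, against the cutoff of 0.1. The titles carry the same E numbers in every group, so missing the cutoff does not show that these arrays are unpaired. Slide as a block was not run because the files give no slide. Signal near background limits Btg2, Rc3h1 and the dim probe of Zc3h12a.

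Member probes called under median scaling numbered 3, 2 and 4 in PM cells (1 h against 0 h, 4 h against 0 h, 4 h against 1 h), 5 and 4 in KO cells (1 h against 0 h, 4 h against 1 h), 6, 3 and 4 in het cells, and 0 at 4 h between PM and het and between KO and het. Between PM and het at 1 h 1 was called without background correction, in the authors' table, with detection on all 4 arrays and with the replicate block. Between PM and het at 4 h 0 were called without background correction, in the authors' table, without a filter, with 1 probe a gene and with only the groups compared. Without background correction 1 was called between KO and het at 4 h, and 1 between PM and KO at 4 h, as with the replicate block. Leaving out 1 array gave 9 to 9, 3 to 5 and 7 to 9 calls in PM, 8 to 10, 3 to 4 and 8 to 8 in KO, and 8 to 10, 5 to 8 and 7 to 9 in het cells, 0 to 1 between PM and het and 1 to 3 between KO and het at 4 h, and 0 to 0 in all other comparisons.

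Calls over all probes under median scaling were 696, 2899 and 2357 in PM, 885, 2197 and 1853 in KO, and 718, 3544 and 3021 in het cells, against 2240, 5119 and 4729, 2695, 4586 and 4391, and 2709, 5626 and 5310. Between genotypes (PM and het, KO and het, PM and KO) they were 1, 2 and 2 at 0 h, against 8, 4 and 6, then 2 (PM and het) and 1 (PM and KO) at 1 h, against 16 and 2, and 34, 88 and 36 at 4 h, against 235, 808 and 230. For the 4 h responses they were 6, 14 and 3, against 13, 166 and 22. The replicate block gave 30, 12 and 31 at 0 h, 50, 17 and 32 at 1 h, 447, 1440 and 492 at 4 h, and 47, 399 and 76 for the 4 h responses; it changed no other call of a member where numbers pair the arrays than those given with their comparisons. The authors' table gave 13 (PM and het, 0 h), 10 (PM and KO, 1 h), 2 and 2 (1 h responses, PM and het, PM and KO) and 27 and 39 (4 h responses, the same pairs), and no background correction 39 for the 4 h response of PM and KO. The 1 h responses had 0 adjusted calls in limma and 84, 78 and 95 probes at an unadjusted p under 0.05.

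List calls under median scaling were, for PM and het, KO and het at 4 h, 0 and 2 Regnase-1 and Roquin targets, 2 and 2 ZFP36 targets and 0 and 0 other regulators, and for KO and het 0 decapping and 0 exosome genes. For het cells at 1 h and 4 h they were 0 and 2 deadenylases, 0 and 3 decapping genes, 3 and 8 exosome genes, 0 and 3 genes of nonsense-mediated decay and, at 1 h, 2 other regulators. Without background correction decapping genes gave 1 and 1, exosome genes 1 and other regulators 0 (PM and het first). The replicate block gave 5 Regnase-1 and Roquin targets and 1 decapping gene between PM and het, 9 ZFP36 targets between KO and het, and 9 other regulators in het cells at 4 h.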
